A study of Mus musculus with 36 samples.

Results

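Oxtr, the oxytocin receptor gene, was followed together with Avpr1b, Rgs14, Amigo2, Pcp4, Cacng5 and Ptpn5, all known from mice as genes enriched in the CA2 field of the hippocampus. In these bulk libraries Avpr1b, Rgs14 and Amigo2 followed a score of other CA2-enriched genes, but they followed markers of other fields too. Pcp4, Cacng5 and Ptpn5 did not follow the CA2-enriched score. They followed thalamic markers, Ptpn5 less closely than striatal ones. Oxtr passed the test with neither the CA2-enriched nor the thalamic score by Pearson's r. The 7 genes were taken by symbol, and not by their values, out of 78298 gene identifiers in the count table. All 7 passed the filter on low counts, as did 21172 genes in all. Bulk RNA sequencing covered hippocampal tissue from 36 mice in 6 groups of 6 libraries, with 3 females and 3 males in each. The groups were Fmr1 knockout (KO) mice given cannabidiol (CBD), Fmr1 KO mice given vehicle, Shank3 KO mice given CBD, Shank3 KO mice given vehicle, wild-type (WT) mice given CBD and WT mice given vehicle. Injections were subcutaneous and went on for 7 days, at 5 mg/kg of CBD in males and 50 mg/kg in females. Sex and dose therefore cannot be told apart among CBD-treated mice. The sources used here do not give genetic background, age or knockout allele. Animal codes began with SKO for all 12 Shank3 KO mice and with FMR for all 12 Fmr1 KO and 11 of the 12 WT mice, the other WT code beginning with CB, so Shank3 KO against WT is also a comparison between code series and these cannot be told apart.

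CA2 is a narrow pyramidal field between CA3 and CA1, and in mice its output is needed to remember another individual. Oxytocin and vasopressin act there through the receptors encoded by Oxtr and Avpr1b, which couple to Gq proteins and phospholipase C. Oxtr is also present in CA3 pyramidal cells and in interneurons. Among the other genes, Rgs14 encodes a G-protein regulator that restrains synaptic plasticity in CA2, and Amigo2 encodes an adhesion protein widely used to label CA2 cells. Pcp4 encodes a small calmodulin-binding protein, Cacng5 an auxiliary subunit of AMPA receptors, and Ptpn5 the phosphatase STEP, which is also abundant in the striatum. The series asked whether CBD, given to mice with either autism-linked mutation, goes with changed hippocampal expression.

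The sequence just before the Oxtr start is shown because Oxtr is the gene whose values are set against sex below, and estrogen receptors are known to regulate it in other tissues. The 250 bases come from RefSeq for GRCm38.p6, chr6:112489826-112490075 on the minus strand, and capitals mark an arm of the estrogen response element.
Oxtr: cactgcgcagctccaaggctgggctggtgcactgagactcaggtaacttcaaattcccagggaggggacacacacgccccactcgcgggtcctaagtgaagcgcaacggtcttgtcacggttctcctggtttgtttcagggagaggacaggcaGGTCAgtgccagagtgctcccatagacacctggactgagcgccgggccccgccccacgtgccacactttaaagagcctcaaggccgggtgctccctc
The window was 61.6% G or C. When both strands were searched, the arm GGTCA was found at 1 place, beginning 97 bases before the start. The whole palindrome GGTCANNNTGACC, which contains that arm, was not in this window. Of 32817 windows of 250 bases in the same RefSeq table, 35.2% held the arm on either strand and 0.064% held the palindrome.

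Library totals ran from 11655697 to 33228089 counts. Fmr1 ran from 30.7 to 44.8 CPM (counts scaled to library size) in the 12 Fmr1 KO libraries and from 63.5 to 80.9 CPM in the 12 WT libraries, without overlap. Shank3 ran from 153 to 218 CPM in the 12 Shank3 KO libraries and from 196 to 391 CPM in the 12 WT libraries. The overlap came from Shank3 KO CBD replicate 6, at 218 CPM where the other 11 Shank3 KO libraries were at 184 CPM or below, and from WT CBD replicate 2, at 196 CPM. Fmr1 averaged 41.1 ± 2.89 CPM in Fmr1 KO vehicle and 73.9 ± 4.86 CPM in WT vehicle libraries, and Shank3 averaged 168 ± 8.75 CPM in Shank3 KO vehicle and 265 ± 19.5 CPM in WT vehicle libraries (SD, n = 6 each). Deposited gene lengths were within 5% of the whole gene span for 98.1% of 20339 intron-containing coding genes, so a count covers the gene body, introns included. Marker lists showed that the dissected tissue varied. Fmr1 KO CBD replicate 3, a male, had a dentate granule marker score of 3.42 and WT CBD replicate 2, a female, one of 4.67, where a score is the mean log2 CPM of a list and every other library was at 5.19 or above. Both also had the lowest CA3 scores, 4.95 and 4.93. Striatal scores were above 3.5 in 7 libraries, 1 of Fmr1 KO vehicle, 1 of Shank3 KO CBD, 3 of Shank3 KO vehicle and 2 of WT CBD mice. Values without these libraries stand beside the results below that they move.

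Expression of the 7 genes spanned a wide range. Per kilobase of gene span, the mean level over 36 libraries was 5.15 CPM per kb for Amigo2, 3.37 for Rgs14, 0.849 for Ptpn5, 0.309 for Cacng5, 0.307 for Oxtr, 0.0544 for Pcp4 and 0.0319 for Avpr1b. The spans of Cacng5 levels (0.157 to 0.751 CPM per kb) and Oxtr levels (0.121 to 0.933 CPM per kb) overlapped almost wholly. The span of Amigo2 levels (1.10 to 7.73 CPM per kb) held that of Rgs14 levels (1.60 to 5.18 CPM per kb), and Avpr1b levels (0 to 0.106 CPM per kb) overlapped Pcp4 levels (0.0227 to 0.182 CPM per kb). These spans are over the same 36 libraries, and the order of neighbouring genes within libraries was not tested. The span of Amigo2 equals its annotated exons, whereas the spans of the others are mostly intron. In GENCODE M21, 57975 of the 58188 bases of Pcp4 overlap Igsf5 on the same strand. For Ptpn5, 15140 of 55890 bases overlap the antisense gene Gm14377. How reads in overlapping genes were assigned is not stated, so the levels per kilobase of these genes, above all that of Pcp4, are uncertain. From the lowest to the highest library, CPM differed 8.02-fold for Pcp4, 7.69-fold for Oxtr, 7.05-fold for Amigo2, 4.78-fold for Cacng5, 3.25-fold for Rgs14 and 2.12-fold for Ptpn5. Avpr1b was at 0 counts in 1 library and reached 36 counts in another, so its values carry the largest counting error.

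**Figure D1:**
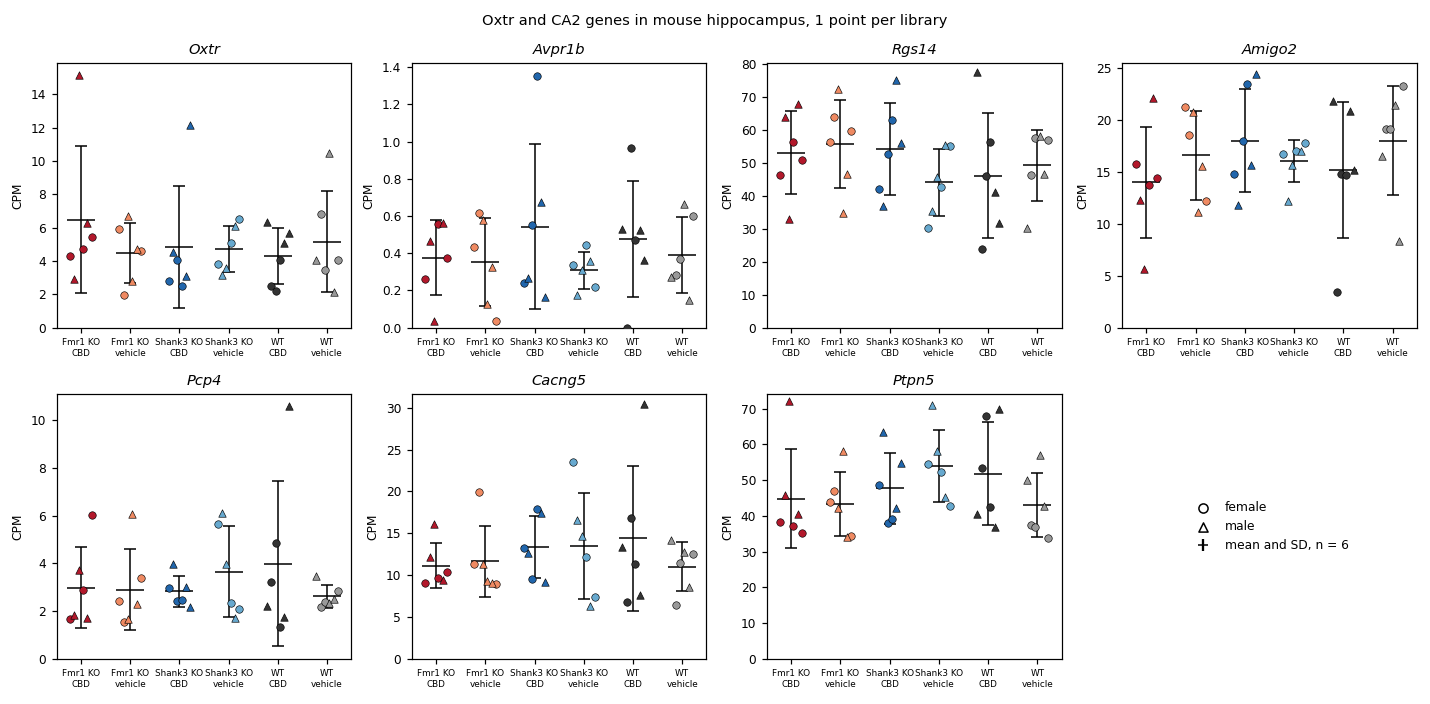
Each panel plots 1 gene as CPM (y axis, from 0) in the 36 libraries, by genotype and treatment (x axis), with circles for females, triangles for males, and bars for the mean and SD of 6 libraries. The 6 groups overlap for every gene, and single high libraries stand out for Oxtr (15.2 CPM in Fmr1 KO CBD and 12.1 CPM in Shank3 KO CBD), Pcp4 (10.6 CPM in WT CBD) and Avpr1b (1.35 CPM in Shank3 KO CBD).

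No receptor or CA2 gene passed the test in any genotype or treatment comparison. In Oxtr, the Fmr1 KO CBD libraries ran from 2.94 CPM through a median of 5.06 to 15.2 CPM, and Fmr1 KO vehicle libraries from 1.97 through 4.69 to 6.71 CPM. Shank3 KO CBD libraries ran from 2.52 through 3.57 to 12.1 CPM, and Shank3 KO vehicle libraries from 3.18 through 4.44 to 6.54 CPM. WT CBD libraries ran from 2.21 through 4.56 to 6.35 CPM, and WT vehicle libraries from 2.11 through 4.07 to 10.5 CPM. All 6 groups overlapped, and the highest library of each CBD-treated KO group stood far above the other 5 of its group. Both of these libraries came from males. The fitted log2 difference of Oxtr was 0.50 for CBD against vehicle in Fmr1 KO mice (95% confidence interval -0.26 to 1.26, adjusted p = 1), and 0.14 without Fmr1 KO CBD replicate 3. It was 0.60 for Fmr1 KO CBD against WT CBD mice (-0.16 to 1.37, adjusted p = 0.744), and 0.23 without the same library. In Shank3 KO mice the CBD difference was -0.07 (-0.84 to 0.69), and -0.48 without replicate 6 of the CBD group, the library with the high Shank3 level. In WT mice it was -0.32 (-1.09 to 0.45), and -0.07 without WT vehicle replicate 4, whose 10.5 CPM was the highest vehicle value. Under vehicle, Oxtr differed by -0.22 (-0.98 to 0.55) between Fmr1 KO and WT mice and by -0.09 (-0.86 to 0.68) between Shank3 KO and WT mice, and these turned to 0.03 and to 0.15 without the same WT library. The intervals of these 6 Oxtr comparisons reached from -1.09 to 1.37.

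Avpr1b, the vasopressin 1b receptor gene that in mice is concentrated in CA2, was near the limit of detection. It averaged 0.376 ± 0.203 CPM in Fmr1 KO CBD, 0.352 ± 0.236 CPM in Fmr1 KO vehicle, 0.543 ± 0.445 CPM in Shank3 KO CBD, 0.307 ± 0.0975 CPM in Shank3 KO vehicle, 0.476 ± 0.312 CPM in WT CBD and 0.390 ± 0.202 CPM in WT vehicle libraries (SD, n = 6 each). The highest value was 1.35 CPM in Shank3 KO CBD replicate 4, a female, and the lowest were 0 CPM in WT CBD replicate 2 and 0.0337 CPM in Fmr1 KO CBD replicate 3. Among the comparisons of genotype and of treatment, its largest fitted difference was 0.75 on the log2 scale for CBD against vehicle in Shank3 KO mice (95% interval -0.41 to 1.91, adjusted p = 0.963), and 0.28 without that highest library. The SE of this difference was 0.57, whereas the 88 counts in Shank3 KO CBD and 51 counts in Shank3 KO vehicle libraries would give 0.254 from counting error alone.

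Rgs14, Amigo2, Cacng5 and Ptpn5 gave narrower intervals than Oxtr and Avpr1b, whereas those of Pcp4 were wider than those of Oxtr. Rgs14 averaged 53.0 ± 12.6 CPM in Fmr1 KO CBD, 55.5 ± 13.3 CPM in Fmr1 KO vehicle, 54.3 ± 13.9 CPM in Shank3 KO CBD, 44.1 ± 10.2 CPM in Shank3 KO vehicle, 46.1 ± 19.0 CPM in WT CBD and 49.2 ± 10.8 CPM in WT vehicle libraries (SD, n = 6 each). Its log2 differences in the 7 genotype and CBD comparisons drawn below lay between -0.16 and 0.30, with SEs of 0.226 to 0.227. The lowest Rgs14 library was WT CBD replicate 2 at 23.9 CPM. Amigo2 averaged 13.996 ± 5.34 CPM in Fmr1 KO CBD, 16.6 ± 4.32 CPM in Fmr1 KO vehicle, 18.02 ± 5.00 CPM in Shank3 KO CBD, 16.1 ± 2.01 CPM in Shank3 KO vehicle, 15.1 ± 6.55 CPM in WT CBD and 17.99 ± 5.24 CPM in WT vehicle libraries. The lowest Amigo2 values, 5.63 and 3.47 CPM, were those of Fmr1 KO CBD replicate 3 and WT CBD replicate 2, the libraries with the lowest CA3 and dentate scores. Amigo2 lies on chromosome 15, as Shank3 does, with an order difference of 32 protein-coding genes in the GENCODE M21 annotation, and its log2 difference in Shank3 KO against WT mice was 0.25 (95% interval -0.34 to 0.83) under CBD and -0.16 (-0.75 to 0.43) under vehicle.

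Cacng5, the AMPA receptor subunit gene, averaged 11.1 ± 2.69 CPM in Fmr1 KO CBD, 11.6 ± 4.20 CPM in Fmr1 KO vehicle, 13.3 ± 3.73 CPM in Shank3 KO CBD, 13.5 ± 6.32 CPM in Shank3 KO vehicle, 14.4 ± 8.66 CPM in WT CBD and 10.99 ± 2.94 CPM in WT vehicle libraries. Its groups overlapped throughout, with 30.4 CPM in WT CBD replicate 6 as the highest value. Pcp4 ran from 1.68 through a median of 2.34 to 6.03 CPM in Fmr1 KO CBD, from 1.55 through 2.36 to 6.09 CPM in Fmr1 KO vehicle, from 2.17 through 2.72 to 3.99 CPM in Shank3 KO CBD, from 1.70 through 3.17 to 6.10 CPM in Shank3 KO vehicle, from 1.32 through 2.72 to 10.6 CPM in WT CBD and from 2.17 through 2.44 to 3.46 CPM in WT vehicle libraries. The 6 groups overlapped, and values above 6 CPM occurred in 4 groups but not in Shank3 KO CBD or WT vehicle libraries. The CBD difference of Pcp4 in WT mice was 0.61 on the log2 scale (95% interval -0.22 to 1.43, adjusted p = 1), and 0.03 without WT CBD replicate 6, whose thalamic marker score of 5.64 was the highest of all. In GENCODE M21, 57975 of the 58188 bases of Pcp4 overlap Igsf5 on the same strand, and Igsf5 had at most 2 counts in a library. The sources used here do not say how the authors assigned reads in overlapping genes, so the level of Pcp4 is uncertain.

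Ptpn5, the phosphatase gene, had the smallest unadjusted p-values of the members, although the smallest adjusted p, 0.659 by edgeR, was that of an Oxtr comparison described below. It ran from 42.9 through a median of 53.4 to 71.0 CPM in Shank3 KO vehicle libraries and from 33.9 through 40.2 to 57.0 CPM in WT vehicle libraries. It ran from 38.0 through 45.4 to 63.6 CPM in Shank3 KO CBD libraries and from 36.8 through 47.9 to 70.0 CPM in WT CBD libraries. Fmr1 KO CBD libraries ran from 35.3 through 39.3 to 72.0 CPM and Fmr1 KO vehicle libraries from 34.2 through 43.0 to 58.1 CPM. The Shank3 KO vehicle libraries sat highest by median, but overlapped every other group. Their fitted difference from WT vehicle was 0.34 on the log2 scale (95% interval -0.003 to 0.68, edgeR quasi-likelihood unadjusted p = 0.0524, adjusted p = 0.853). With these groups alone in the edgeR fit, it was 0.34 with an unadjusted p of 0.0096 and an adjusted p of 0.675. The CBD difference was -0.18 (-0.52 to 0.16) in Shank3 KO and 0.30 (-0.05 to 0.64) in WT mice, and these differed by -0.48 (-0.96 to 0.002, unadjusted p = 0.0514, adjusted p = 0.912).

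Striatal markers moved with Ptpn5. Of 12 listed striatal genes, 11 were measured, and Penk was at 0 in some library. Their summed level ran from 334 to 748 CPM in Fmr1 KO CBD, from 444 to 850 CPM in Fmr1 KO vehicle, from 385 to 1070 CPM in Shank3 KO CBD, from 534 to 1759 CPM in Shank3 KO vehicle, from 259 to 1774 CPM in WT CBD and from 281 to 694 CPM in WT vehicle libraries. With the striatal score as a covariate, the Ptpn5 difference between Shank3 KO vehicle and WT vehicle mice was 0.08, and without the 7 libraries with a score above 3.5 it was 0.19. The difference of the CBD effects was -0.10 with the covariate and -0.14 without those libraries. Because scores fell into separate sets, the correlation was taken within each. Among the 29 libraries at or below 3.5, Ptpn5 and the striatal score correlated with r = 0.768 and rho = 0.586 (permutation p = 2e-05 for r and 0.00113 for rho, adjusted p = 0.00028 for r over the 14 relations of 7 genes in 2 sets). Fmr1 KO CBD replicate 3 had both the highest score (3.09) and the highest Ptpn5 level in this set, and without it r was 0.650 and rho 0.540 over 28 libraries (permutation p = 0.00027 and 0.00345). Among the 7 libraries above it, r was 0.632 and rho 0.786 (exact permutation p = 0.135 and 0.048, adjusted p = 0.291 for r). Ptpn5 was not alone in this. In the 29 libraries, Rgs14 (r = -0.607, rho = -0.512), Avpr1b (-0.546, -0.426) and Amigo2 (-0.552, -0.272) ran opposite to the striatal score. Their permutation adjusted p for r was 0.00532, 0.0141 and 0.0174, and permutation p for rho was 0.0049, 0.0213 and 0.153. The part of this tissue in the Ptpn5 differences was not tested beyond these values. In bulk tissue, fewer cells of a type and less RNA per cell cannot be told apart.

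**Figure D2:**
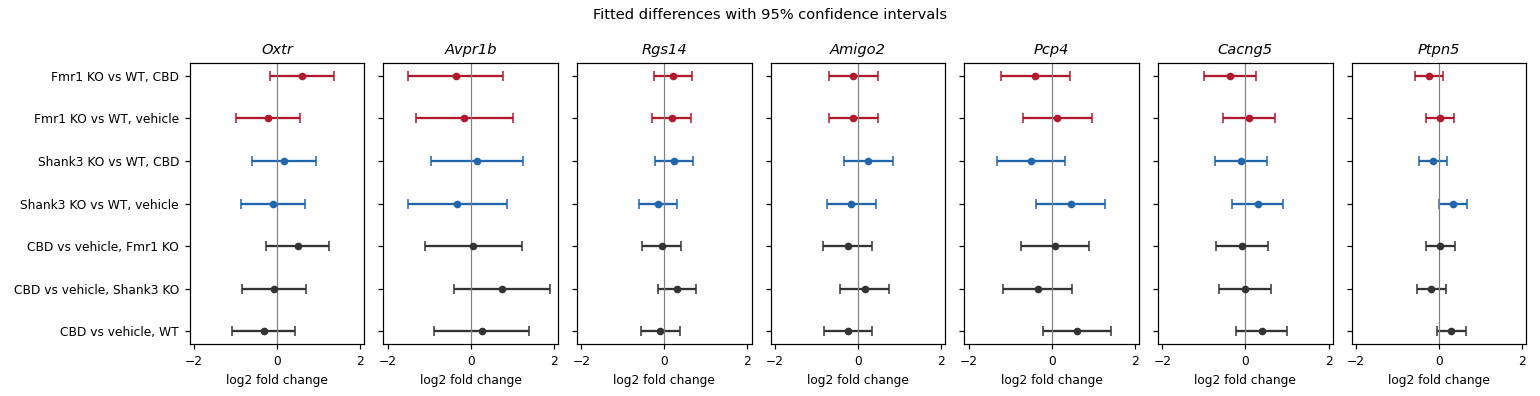
Each panel plots 1 gene, with the log2 fold change on the x axis and the comparisons down the page; points are fitted values and bars 95% confidence intervals from the model over 36 libraries. Bars of Avpr1b are the widest, those of Ptpn5 the narrowest, and every interval includes 0, the Shank3 KO against WT vehicle bar of Ptpn5 only just.

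Counts of members are set against the share of all 21172 genes called at an adjusted p under 0.05. In Fmr1 KO against WT mice, 0 of 7 members were called under CBD (0.0331% of all genes) and 0 of 7 under vehicle (0.0283%). In Shank3 KO against WT mice, 0 of 7 were called under CBD (0.0425%) and 0 of 7 under vehicle (0.0378%), and 0 of 7 were called between Shank3 KO vehicle and Fmr1 KO vehicle mice (0.00945%). CBD against vehicle gave 0 of 7 members in Fmr1 KO, in Shank3 KO and in WT mice (0% of genes in each), and 0 of 7 for the mean over 3 genotypes (0.0189%). The difference of the CBD effect between Fmr1 KO and WT mice, and between Shank3 KO and WT mice, also gave 0 of 7 (0% each). With so few genes called anywhere, a count of 0 among 7 is what the background share gives. With all libraries and the model described here, no member had an unadjusted p under 0.05 by edgeR in any of the 15 comparisons. Under alternative settings 51 of 2956 member values did, in 12 pairs of a gene and a comparison, none of them called, and DESeq2 and limma voom called 0 members in each. Over all genes, unadjusted p was under 0.05 for 558 genes in Fmr1 KO, 934 in Shank3 KO and 567 in WT mice in the CBD comparisons that called none. CPM ranges overlapped for all 7 members in each of the 8 comparisons of a pair of groups. The share of all genes without overlap was 0.184% in Fmr1 KO against WT mice under CBD, 0.128% under vehicle, 0.0897% in Shank3 KO against WT mice under CBD, 0.279% under vehicle and 0.345% between the vehicle-treated KO lines. For CBD against vehicle it was 0.052% in Fmr1 KO, 0.241% in Shank3 KO and 0.052% in WT mice.

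The members had values of both signs in every comparison except that of CBD in males, where all 7 were positive with a median of 0.18, against 0.01 for all genes, of which 52.2% were positive. With any 1 library left out, 3 of the 7 stayed positive (Oxtr, Rgs14 and Cacng5). Pcp4 turned to -0.43 and Ptpn5 to -0.09 without WT CBD replicate 6, Avpr1b to -0.04 without Shank3 KO CBD replicate 5 and Amigo2 to -0.11 without Fmr1 KO CBD replicate 5. Median log2 differences were -0.24 for Fmr1 KO against WT mice under CBD and 0.02 under vehicle, against 0.00 for all genes in both. They were 0.16 for Shank3 KO against WT mice under CBD and -0.09 under vehicle, against -0.01 and 0.00 for all genes. Without Fmr1 KO CBD replicate 3 and WT CBD replicate 2, the medians under CBD were -0.36 in Fmr1 KO and -0.10 in Shank3 KO against WT mice, and without the 7 libraries high in striatal markers they were 0.11 and 0.27. The vehicle median of Shank3 KO against WT mice was 0.17 without those 7. The medians thus changed sign with the libraries left out. For the mean CBD effect, 6 members had positive and 1 a negative value, with a median of 0.05 against 0.01 for all genes, and the median was -0.04 without the 7 libraries. Comparisons that share a group share its 6 libraries, so their values are not independent of each other.

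The largest fitted Oxtr value among the 15 comparisons was the difference of the CBD effect between the sexes, and it did not pass the test. Over the 3 genotypes, female Oxtr values ran from 2.21 through a median of 4.05 to 5.42 CPM with CBD and from 1.97 through 4.63 to 6.82 CPM with vehicle. Male values ran from 2.94 through 5.68 to 15.2 CPM with CBD and from 2.11 through 4.08 to 10.5 CPM with vehicle. The treated males had a median above the highest treated female, although the ranges overlapped, and the vehicle groups of the sexes overlapped widely. The CBD difference was -0.41 on the log2 scale in females at 50 mg/kg (95% interval -1.05 to 0.23, adjusted p = 0.984) and 0.47 in males at 5 mg/kg (-0.16 to 1.10, adjusted p = 0.727). The value in males was 0.19 without Fmr1 KO CBD replicate 3 and 0.74 without WT vehicle replicate 4 (edgeR unadjusted p = 0.0197, adjusted p = 0.477). The difference between these effects was -0.88 (-1.77 to 0.02, edgeR quasi-likelihood unadjusted p = 0.0555, adjusted p = 0.659). It stayed between -1.15 and -0.60 when any 1 library was left out, the weakest without Fmr1 KO CBD replicate 3 and the strongest without WT vehicle replicate 4 (edgeR unadjusted p = 0.00988, adjusted p = 0.459). It was -0.57 without Fmr1 KO CBD replicate 3 and WT CBD replicate 2 together.

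By genotype, the mean differences of Oxtr did not all run the same way. Female Fmr1 KO mice averaged 4.80 ± 0.568 CPM with CBD and 4.17 ± 2.01 CPM with vehicle (SD, n = 3 each). Female Shank3 KO mice averaged 3.12 ± 0.817 CPM with CBD and 5.14 ± 1.37 CPM with vehicle, and female WT mice 2.92 ± 0.988 CPM with CBD and 4.77 ± 1.80 CPM with vehicle. The 3 means of males were all higher with CBD, but by less than the larger SD of each pair. Male Fmr1 KO mice averaged 8.12 ± 6.32 CPM with CBD and 4.74 ± 1.97 CPM with vehicle, male Shank3 KO mice 6.58 ± 4.86 CPM with CBD and 4.29 ± 1.58 CPM with vehicle, and male WT mice 5.70 ± 0.643 CPM with CBD and 5.56 ± 4.38 CPM with vehicle. The large SDs of treated KO males rest on 1 library each. Under vehicle, females differed from males by -0.06 (95% interval -0.69 to 0.58) for Oxtr and by -0.26 (-0.54 to 0.01, unadjusted p = 0.0614, adjusted p = 1 by edgeR) for Ptpn5. With the striatal score as a covariate the Ptpn5 value was -0.08. Members called were 0 of 7 between the sexes under vehicle (0.0331% of all genes), 0 of 7 for CBD in females (0.0142%), 0 of 7 for CBD in males (0%) and 0 of 7 for the difference of these effects (0%).

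**Figure D3:**
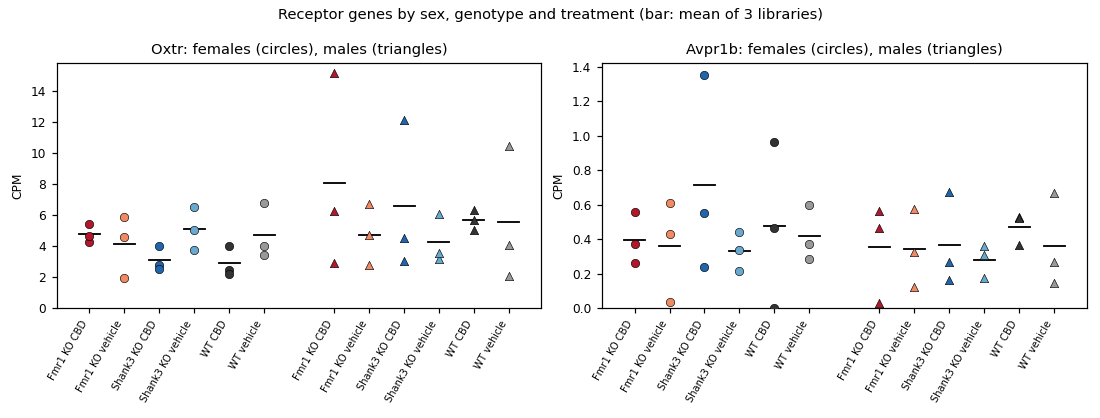
CPM of Oxtr (left) and Avpr1b (right) on the y axis in each library, by sex, genotype and treatment on the x axis, with a bar for the mean of 3 libraries. Treated males hold the highest Oxtr values (15.2 and 12.1 CPM), and a treated female holds the highest Avpr1b value (1.35 CPM).

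The wider oxytocin and vasopressin system was measured in 10 of 13 listed genes. Oxt, the oxytocin gene, had 0 to 86 counts and failed the filter, while Avp, the vasopressin gene, had 0 to 381 counts and passed it. The receptor genes Avpr1a and Avpr2 were listed at 0 in every library. Both lie wholly within other genes on the opposite strand in GENCODE M21, and with the strand setting unknown their levels cannot be read from this 0. None of the 10 measured genes was called in any comparison. Avp had the smallest p for the mean CBD effect, with a log2 difference of 1.47 (95% interval 0.33 to 2.60, edgeR unadjusted p = 0.0122, adjusted p = 1). Its highest library, Shank3 KO CBD replicate 4, had 14.3 CPM and every other one 1.64 CPM or less. The same library held the highest Oxt value, 3.23 CPM, and the highest Avpr1b value.

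Downstream of the receptors, the G-protein gene Gnaq differed by 0.13 (-0.07 to 0.33), the phospholipase gene Plcb1 by 0.22 (-0.19 to 0.64) and the regulator gene Rgs2 by -0.28 (-0.88 to 0.32) on the log2 scale between Fmr1 KO vehicle and WT vehicle mice. Between Shank3 KO vehicle and WT vehicle mice, the regulator gene Rgs4 differed by 0.48 (0.02 to 0.94, unadjusted p = 0.0409, adjusted p = 0.853 by edgeR), Plcb1 by 0.29 (-0.12 to 0.70) and the inositol trisphosphate receptor gene Itpr1 by 0.15 (-0.10 to 0.40). Rgs4 averaged 104 ± 39.4 CPM in Shank3 KO vehicle and 73.9 ± 15.5 CPM in WT vehicle libraries (SD, n = 6 each), and these ranges overlapped. Striatal markers moved with Rgs4 too. Its highest library, Shank3 KO vehicle replicate 2 at 181 CPM, had the highest striatal score, 5.86, and 3 of 6 Shank3 KO vehicle libraries but 0 of 6 WT vehicle libraries had a score above 3.5. The Rgs4 difference was 0.17 with the score as a covariate, 0.22 without the 7 libraries above 3.5 and 0.31 without Shank3 KO vehicle replicate 2 (edgeR unadjusted p = 0.38, 0.363 and 0.178). Median differences of the 10 genes were 0.02 in Fmr1 KO and 0.18 in Shank3 KO against WT mice under vehicle, against 0.00 for all genes in both. For the mean CBD effect, Gna11 (0.07) and the oxytocin-cleaving peptidase gene Lnpep (-0.03) followed Avp in order of p.

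Other CA2-enriched genes gave no call either. Of 10 listed, 9 were measured and none was called in any comparison, and Fgf2 failed the filter. Between Fmr1 KO vehicle and WT vehicle mice, the receptor kinase gene Epha4 differed by 0.18 (-0.25 to 0.61), the mineralocorticoid receptor gene Nr3c2 by 0.18 (-0.28 to 0.65) and the matrix proteoglycan gene Vcan by 0.07 (-0.11 to 0.25). Between Shank3 KO vehicle and WT vehicle mice, Vcan differed by 0.13 (-0.05 to 0.31), S100b by 0.14 (-0.26 to 0.53) and Necab2 by 0.14 (-0.30 to 0.58). For the mean CBD effect, Acan, a core gene of perineuronal nets, differed by 0.11 (-0.11 to 0.32), Stard5 by -0.10 (-0.39 to 0.18) and Map3k15 by -0.05 (-0.29 to 0.19). The median of the 9 genes was 0.06 in Fmr1 KO and -0.04 in Shank3 KO against WT mice under vehicle, against 0.00 for all genes in both, and 0.00 for the mean CBD effect, against 0.01 for all genes.

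Across libraries, the members fell into different patterns of covariation. In all, 112 relations over 36 libraries were computed on log2 CPM, with permutation p-values whose smallest possible value is 1e-05 and Benjamini-Hochberg adjustment over the 112. Avpr1b and Amigo2 correlated with r = 0.738 and rho = 0.552 (permutation p = 1e-05 and 0.00067, adjusted p = 0.00014 and 0.00395), and r was 0.523 without the 2 libraries farthest from the median. Rgs14 and Amigo2 correlated with r = 0.605 and rho = 0.493 (permutation p = 1e-04 and 0.00258, adjusted p = 0.0007 and 0.00963), and r was 0.510 without the 2 farthest and 0.405 without Fmr1 KO CBD replicate 3 and WT CBD replicate 2. Avpr1b and Rgs14 correlated with r = 0.573 and rho = 0.609 (permutation p = 0.00023 and 0.00019, adjusted p = 0.00117 and 0.00164), and r was 0.398 without the 2 farthest. With group and sex means removed, r was 0.774 for Avpr1b and Amigo2, 0.642 for Rgs14 and Amigo2 and 0.615 for Avpr1b and Rgs14.

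Pcp4, Cacng5 and Ptpn5 varied together, and Pcp4 and Ptpn5 ran opposite to Rgs14. Pcp4 and Ptpn5 correlated with r = 0.551 and rho = 0.418 (permutation p = 0.00047 and 0.0126, adjusted p = 0.00195 and 0.0327), with r = 0.406 without the 2 farthest libraries. Pcp4 and Cacng5 gave r = 0.501 and rho = 0.423 (permutation p = 0.00167 and 0.0109, adjusted p = 0.00603 and 0.0294), with r = 0.312 without the 2 farthest, and Cacng5 and Ptpn5 gave r = 0.499 and rho = 0.460 (permutation p = 0.00205 and 0.00487, adjusted p = 0.00692 and 0.016), with r = 0.401. Rgs14 ran opposite to Pcp4, with r = -0.595 and rho = -0.567 (permutation p = 0.00012 and 0.00038, adjusted p = 0.000791 and 0.00284), and to Ptpn5, with r = -0.563 and rho = -0.511 (permutation p = 0.00037 and 0.00168, adjusted p = 0.00166 and 0.00697). Without the 2 farthest libraries these were -0.649 and -0.589. Rgs14 and Cacng5 gave r = -0.110 and rho = -0.027 (permutation p = 0.519 and 0.871, adjusted p = 0.612 and 0.895). Oxtr had r between -0.184 and 0.205 with the other 6 genes, none past the adjusted threshold. Its rho with Amigo2 was 0.383 (permutation p = 0.0217, adjusted p = 0.0496), and r with Amigo2 was 0.466 without the 2 libraries with the most distant Oxtr values.

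**Figure D4:**
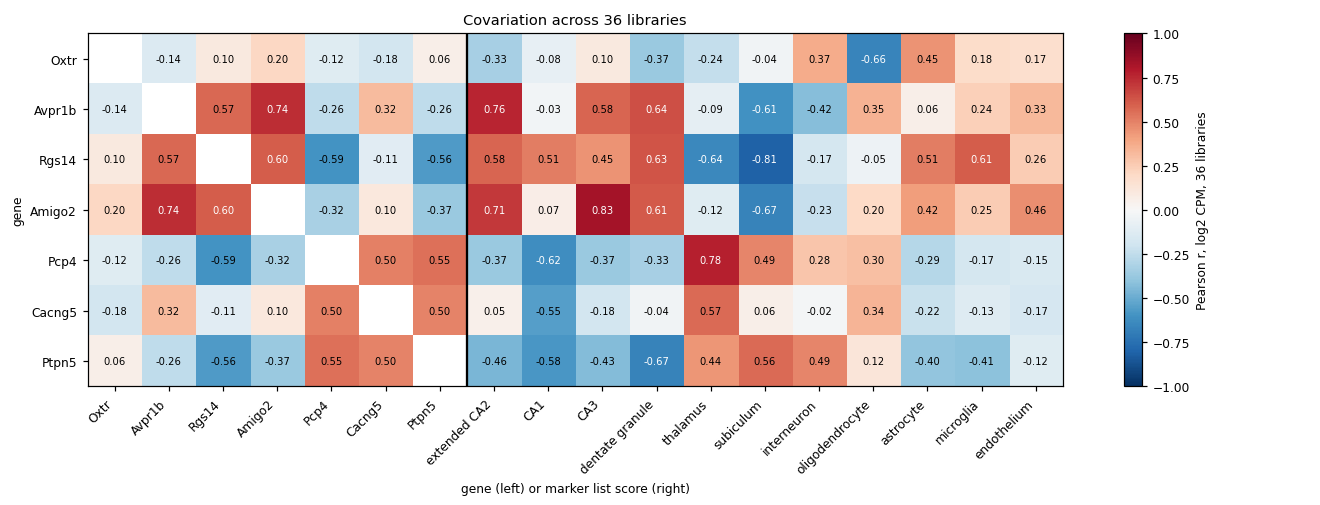
Pearson r of log2 CPM over 36 libraries for each gene (rows) with the other genes (left columns) and with marker list scores (right columns), coloured from blue for -1 to red for 1. Avpr1b, Rgs14 and Amigo2 form a positive block, Pcp4, Cacng5 and Ptpn5 form another, and Oxtr has weak values with every other gene; striatum and choroid plexus scores are not drawn because libraries fell into separate sets.

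Each gene was also set against marker scores of the fields and tissues that a hippocampal dissection can hold. Amigo2 followed CA3 markers, of which 9 of 9 were measured and none was at 0, with r = 0.829 and rho = 0.719 (permutation p = 1e-05 for both, adjusted p = 0.00014 and 0.000187), and with r = 0.599 without Fmr1 KO CBD replicate 3 and WT CBD replicate 2. Avpr1b followed the other CA2-enriched genes, with r = 0.758 and rho = 0.686 (permutation p = 1e-05 for both, adjusted p = 0.00014 and 0.000187), and with r = 0.648 without those libraries. Amigo2 (r = 0.706) and Rgs14 (r = 0.581) followed the same score (permutation adjusted p = 0.000373 and 0.00101), with r = 0.459 and 0.473 without those libraries. Other scores were followed too. Rgs14 had r = 0.629 with dentate granule, 0.607 with microglial and 0.508 with CA1 markers (permutation adjusted p = 0.000431, 0.000825 and 0.00603). Without those libraries these were 0.6, 0.611 and 0.655. Avpr1b had r = 0.643 with dentate granule and 0.581 with CA3 markers (permutation adjusted p = 0.000597 and 0.00196), and 0.426 and 0.232 without those libraries. The remaining members did not follow the CA2-enriched score. Ptpn5 ran opposite to this score with r = -0.457 and rho = -0.333 (permutation adjusted p = 0.012 and 0.0871), and r was -0.312 without those libraries. Pcp4 gave r = -0.370 and rho = -0.437 (permutation adjusted p = 0.0583 and 0.0238), Oxtr r = -0.330 and rho = -0.109 (0.0976 and 0.597), and Cacng5 r = 0.052 and rho = 0.123 (0.803 and 0.548). Rgs14 ran opposite to subicular markers, of which 4 of 5 were measured and Teddm3 was at 0 in some library. The correlation was r = -0.806 and rho = -0.775 (permutation p = 1e-05 for both, adjusted p = 0.00014 and 0.000187), and r was -0.738 without the 2 farthest libraries. Amigo2 (r = -0.666) and Avpr1b (r = -0.606) also ran opposite to them (permutation adjusted p = 0.000373 and 0.00084). Without Fmr1 KO CBD replicate 3 and WT CBD replicate 2 these were -0.476 and -0.424. CPM are shares of a library, so the scores of different tissues in a library are not independent of each other. Summed CA3 markers ran from 1006 to 1274 CPM in Fmr1 KO CBD, from 1062 to 1526 CPM in Fmr1 KO vehicle, from 1045 to 1320 CPM in Shank3 KO CBD, from 1185 to 1477 CPM in Shank3 KO vehicle, from 1012 to 1656 CPM in WT CBD and from 1038 to 1653 CPM in WT vehicle libraries.

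Pcp4 followed thalamic markers, of which 9 of 10 were measured and Rgs16 and Shox2 were each at 0 in some library. The correlation was r = 0.778 and rho = 0.719 (permutation p = 1e-05 for both, adjusted p = 0.00014 and 0.000187), and r was 0.669 without Shank3 KO vehicle replicate 1 and WT CBD replicate 6. Cacng5 did so with r = 0.569 and rho = 0.502 (permutation p = 0.00031 and 0.00218, adjusted p = 0.00145 and 0.00842), and with r = 0.314 without the same 2 libraries, and Ptpn5 with r = 0.442 and rho = 0.423 (permutation adjusted p = 0.0179 and 0.0294), and with r = 0.322. Ptpn5 had higher values with subicular (r = 0.565) and interneuron markers (r = 0.487) (permutation adjusted p = 0.00145 and 0.0079). Pcp4 also followed subicular markers, with r = 0.490 (permutation adjusted p = 0.00812). Summed thalamic markers ran from 132 to 288 CPM in Fmr1 KO CBD, from 128 to 314 CPM in Fmr1 KO vehicle, from 106 to 396 CPM in Shank3 KO CBD, from 162 to 676 CPM in Shank3 KO vehicle, from 131 to 885 CPM in WT CBD and from 139 to 449 CPM in WT vehicle libraries. Ptpn5 ran opposite to dentate granule markers, with r = -0.665 and rho = -0.751 (permutation p = 1e-05 for both, adjusted p = 0.00014 and 0.000187), and with r = -0.691 without the 2 farthest libraries. Of 12 dentate markers, 12 were measured.

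Oxtr ran opposite to oligodendrocyte markers, of which 10 of 10 were measured and none was at 0. The correlation was r = -0.664 and rho = -0.533 (permutation p = 1e-05 and 0.00093, adjusted p = 0.00014 and 0.00482), and r was -0.619 without Fmr1 KO CBD replicate 3 and WT CBD replicate 6. The library with the highest Oxtr level, Fmr1 KO CBD replicate 3, had the lowest oligodendrocyte score, 4.64. Shank3 KO CBD replicate 6, with the next highest Oxtr level, had the next lowest score, 5.996. Summed oligodendrocyte markers ran from 581 to 2807 CPM in Fmr1 KO CBD, from 1620 to 3597 CPM in Fmr1 KO vehicle, from 1703 to 4457 CPM in Shank3 KO CBD, from 2207 to 4237 CPM in Shank3 KO vehicle, from 2303 to 4480 CPM in WT CBD and from 2023 to 4184 CPM in WT vehicle libraries. Oxtr also followed astrocyte markers, with r = 0.449 and rho = 0.477 (permutation adjusted p = 0.0162 and 0.0126). That r was 0.576 without Fmr1 KO CBD replicate 3 and WT CBD replicate 2. With thalamic markers, Oxtr gave r = -0.242 and rho = -0.431 (permutation adjusted p = 0.241 and 0.0263). With interneuron markers it gave r = 0.373 and rho = 0.366 (permutation adjusted p = 0.0561 and 0.0616). The part of these tissues in the Oxtr values was not tested.

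**Figure D5:**
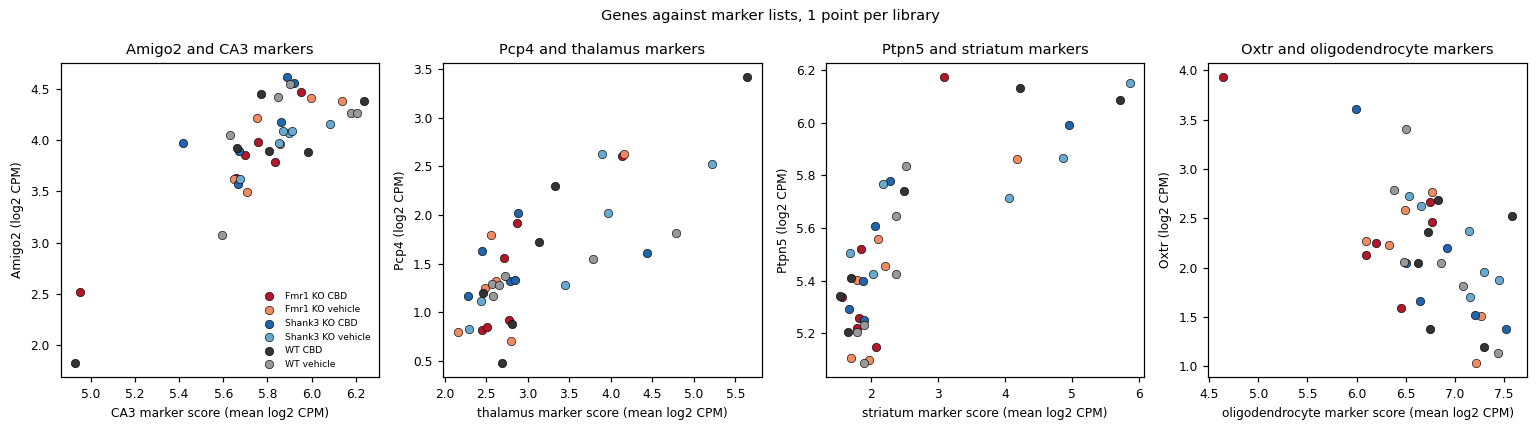
Log2 CPM of a gene (y axis) against a marker score in mean log2 CPM (x axis), 1 point per library, coloured by group, for Amigo2 with CA3, Pcp4 with thalamus, Ptpn5 with striatum and Oxtr with oligodendrocyte markers. The libraries of different groups are intermixed, 2 libraries sit far below the rest in the Amigo2 panel, and the 7 libraries with a striatal score above 3.5 sit apart in the Ptpn5 panel.

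The genes most like each member were sought by the correlation of log2 CPM over 36 libraries after group and sex means were removed, as a description. The search covered measured genes with a symbol, and predicted genes and those with Rik in the symbol were left out. Oxtr was most like Aloxe3 (r = 0.918), Nos1 (0.918), which encodes neuronal nitric oxide synthase, and Nectin1 (0.894). Avpr1b was most like Cd109 (0.812), Iyd (0.808) and Acan (0.802), and the last 2 belong to the CA3 and the CA2-enriched lists used above. Rgs14 was most like Agfg2 (0.946), Cnih2 (0.914), an auxiliary AMPA receptor subunit gene, and Camk2a (0.913), a kinase gene of excitatory neurons. Amigo2 was most like Cidea (0.903), Lhx9 (0.889) and Npy2r (0.873), the last being in the CA3 list. Pcp4 was most like Pdp1 (0.859), Adamts19 (0.825) and Ramp3 (0.794), the last being in the thalamic list. Cacng5 was most like Col6a3 (0.745), Rasa4 (0.728) and Sfta3-ps (0.726), and Ptpn5 was most like Atp6ap1l (0.874), Sema3a (0.873) and Rasgef1c (0.870). Without Fmr1 KO CBD replicate 3 and WT CBD replicate 2, the values of Amigo2 were 0.739 with Cidea, 0.718 with Lhx9 and 0.729 with Npy2r, and its closest gene was Nrp2 (0.813). Those of Avpr1b were 0.615 with Cd109, 0.629 with Iyd and 0.788 with Acan, which was then its closest gene. The genes named for Oxtr were the closest 3 either way, and Agfg2 and Pdp1 stayed closest to Rgs14 and Pcp4, whereas the closest gene became Tet1 (0.749) for Cacng5 and Nkx2-1 (0.904) for Ptpn5.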

How the data were processed

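The deposited table held raw counts per gene for 36 libraries. Per the submitters' processing notes, STAR 2.7.11b aligned reads to GRCm39 and featureCounts 2.0.8 counted them, and FastQC, DESeq2 and edgeR are also named there. The sources used here do not state the annotation release, the strand setting or the treatment of overlapping genes. Sex came from a deposited metadata table. Symbols, spans and overlaps came from GENCODE M21 and the promoter from RefSeq, which matched 5 of 7 members. Both are on GRCm38, so no coordinate in the build of the counts is printed.

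Counts were tested in R 4.3.3 with edgeR 4.0.16 (TMM scaling, filterByExpr, quasi-likelihood). The 21172 genes kept held 99.9% of the counts. The model had 1 coefficient per group and an additive sex term, or 1 per group and sex for the comparisons by sex. P-values were two-sided and adjusted by Benjamini-Hochberg over all genes tested. Intervals are 95% intervals of the fitted model, and CPM are the counts scaled by TMM library size. Scores average log2 CPM with a prior count of 2. On counts simulated for Shank3 KO vehicle against WT vehicle over 21172 genes, the test recovered 89 of 100 genes changed by 1 and 97 of 100 changed by 2 on the log2 scale, with 3 false calls. The changed genes were drawn only from those above a minimum mean count, which Avpr1b did not reach. In the real comparison the SE was 0.377 for Oxtr, 0.409 for Pcp4 and 0.587 for Avpr1b. Recovery was not simulated for the members, so these shares do not give their power. No library was identical to another. No 2 libraries carry the same animal code, and each was taken as 1 animal. Litters and cages are not stated.

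Alternatives were DESeq2 1.42.0, limma 3.58.1 voom, other filters and scaling, no sex term, a replicate block, the compared groups alone, a striatal score covariate, and leaving out libraries. Named genes were all members, the targeted genes, the 3 genes of each list with the smallest p in the vehicle genotype and mean CBD comparisons, and the 3 genes most like each member. The members and lists were chosen with earlier results of these data known.

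The check of the replicate numbers, which the labels share between groups, is given with the alternatives below.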

Additional observations from a re-analysis of the deposited data

Results flagged for a closer look

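Of 42 pairs of a gene and a group of 6 libraries, 4 had a library far from the other 5, where chance alone marks about 1 in 20 groups. Oxtr was at 15.2 CPM in Fmr1 KO CBD replicate 3, against 2.94 to 6.26 CPM in the other libraries of that group. Oxtr was also at 12.1 CPM in Shank3 KO CBD replicate 6, against 2.52 to 4.53 CPM in the others. Ptpn5 was at 72.0 CPM in Fmr1 KO CBD replicate 3, against 35.3 to 45.8 CPM in the others. Cacng5 was at 19.9 CPM in Fmr1 KO vehicle replicate 2, against 8.99 to 11.3 CPM in the others. Fmr1 KO CBD replicate 3 also had the lowest dentate granule and oligodendrocyte scores of all libraries, 3.42 and 4.64, and their part in its Oxtr and Ptpn5 values was not tested.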

How the results depend on the processing

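Not every setting was fitted to all 15 comparisons. No member was called in those fitted under 11 settings, or with each of 36 libraries left out where it belonged to the fit. Over these, 2956 member values were recomputed, with a smallest adjusted p of 0.382. An unadjusted p was under 0.05 for 51 of them. Of the 2956, 231 changed sign and 45 moved by more than 1 SE. Leaving out Fmr1 KO CBD replicate 3 and WT CBD replicate 2 together, or the 7 libraries with a striatal score above 3.5, was chosen after seeing the data, as were the values of Rgs4, the member medians and the genes most alike without single libraries. Replicate numbers are shared between groups, but same-numbered libraries did not deviate together. Of 90 such pairs, 32 correlated above 0.1, with a median of 0.00 and a range of -0.44 to 0.41. With the replicate number as a block in place of sex, 0 members were called in each comparison that could be fitted. Counts over all genes moved more. Those called were 8, and 13 with DESeq2, in Shank3 KO against WT vehicle mice, 7, and 4 with the strict filter of 10 counts in 30 libraries, in Fmr1 KO against WT CBD mice, and 9, and 5 with the compared groups alone, in Shank3 KO against WT CBD mice. Between the KO lines they were 2, and 6 with DESeq2. For the mean CBD effect they were 4, and 0 with the strict filter, for CBD in females 3, and 0 with the strict filter or 7 with voom, and between the sexes under vehicle 7, and 3 with the strict filter or 11 with voom. Avpr1b had at most 36 counts in a library, and its SE for CBD in Shank3 KO mice, 0.57, was above the 0.254 that counting error alone gives.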
